A study of Mus musculus with 18 samples.

Results

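The transcripts described here are those of the mouse mitochondrial genome. They were taken as every row of the deposited count table whose gene name starts with mt-, which gave 37 of 41325 rows: 13 mRNAs, 2 rRNAs and 22 tRNAs. All 37 lie on chromosome MT of GRCm38 and carry the same names in GENCODE release 21 for mouse. Sequencing covered the granulosa cells of the follicle wall (mural) and those around the oocyte (cumulus), both isolated from ovaries of mice labelled WT. The 6 groups were mural and cumulus cells collected 0, 4 and 12 h after hCG, human chorionic gonadotropin, a hormone used in place of the luteinizing hormone surge that starts ovulation. Each group held 3 libraries, and groups were read from the sample titles, since 8 of the 9 samples titled cumulus carry the cell type label mural granulosa cell and 1 carries none. The labels give no strain, age, number of animals or pooling, and none says that replicates came from separate animals, so each p-value is set against a spread between samples that may be technical.

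The mitochondrial genome encodes the core membrane subunits of respiratory complexes I, III and IV and of the ATP synthase (complex V), together with the rRNAs and tRNAs that translate them. Both strands are transcribed by a dedicated polymerase into long precursors, which are cut where tRNAs fold out between the coding parts, and most mRNAs then receive a short poly(A) tail. All other subunits come from nuclear genes, so the complexes draw on both genomes. In granulosa cells mitochondria also hold the enzyme that starts steroid synthesis from cholesterol, which is made in quantity around ovulation.

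The libraries were enriched for poly(A) RNA, so the 3′ ends of the mitochondrial mRNAs bear on how they were captured. The last 30 bases of 4 mRNAs are shown because their ends differ in kind, 5′ to 3′ as the gene reads, from the GENCODE transcripts on GRCm38, with the bases left for the last codon in capitals.
mt-Co1: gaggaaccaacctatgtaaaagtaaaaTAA
mt-Co3: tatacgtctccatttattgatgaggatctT
mt-Nd4: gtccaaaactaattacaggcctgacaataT
mt-Cytb: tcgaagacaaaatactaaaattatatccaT
As annotated, mt-Co1, at MT:5328-6872 on the plus strand, ends in a whole stop codon, as do 10 of the 13 mRNAs. The annotated mt-Co3 (MT:8607-9390), mt-Nd4 (MT:10167-11544) and mt-Cytb (MT:14145-15288) leave only 1 base of it, and it is textbook knowledge that the poly(A) tail completes such codons. Among the 10, the last 2 bases of mt-Nd1 and of mt-Nd2 also belong to the plus-strand tRNA genes mt-Ti and mt-Tw. Where the mature mRNAs end was not tested.

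The genome is compact, and some members share bases or lie back to back on opposite strands. mt-Atp8 and mt-Atp6, subunits of the ATP synthase carried on 1 mRNA, overlap by 43 bases at MT:7927-7969, and reads within them could be given to either gene. The overlap is shown with no part singled out.
mt-Atp8 and mt-Atp6: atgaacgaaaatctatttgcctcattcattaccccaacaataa
The tRNA genes mt-Tt (threonine, MT:15289-15355, plus strand) and mt-Tp (proline, MT:15356-15422, minus strand) are adjacent, of 67 bases each, and had very different counts, so both are shown, each as its own gene reads.
mt-Tt: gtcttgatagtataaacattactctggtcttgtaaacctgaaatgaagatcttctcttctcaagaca
mt-Tp: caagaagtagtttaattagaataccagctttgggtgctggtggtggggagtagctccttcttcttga

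Library totals ran from 32211630 to 47919446 counts, of which 938105 to 4756287 counts belonged to the 37 genes. Levels are given as CPM, counts per 1000000 counts of the library after scaling with edgeR's TMM factors, and a change is the log2 ratio of the edgeR quasi-likelihood fit over 19941 genes and all 18 libraries, with Benjamini-Hochberg adjusted p under 0.05 as the call. 28 of the 37 genes passed the filter on low counts: every mRNA, both rRNAs and 13 tRNAs. The summed level of Lhcgr, Nppc and Cyp11a1, markers of mural cells, ran from 1453 to 5549 CPM in mural libraries and from 18.8 to 381 CPM in cumulus libraries. The 15 oocyte markers summed to 168 to 800 CPM in mural libraries, 519 to 2601 CPM in cumulus 0 h, 1533 to 9381 CPM in cumulus 4 h and 6.31 to 13.9 CPM in cumulus 12 h, where Zp1 and Figla had no count. 2 libraries stood apart: cumulus 0 h replicate 1, with 12.8% of its counts from the 37 genes, and cumulus 4 h replicate 3, with the largest sum of oocyte markers, so the counts of mitochondrial members called and the mRNA medians are also given without them. Erythroid markers summed to 322.8 to 614.5 CPM in mural 4 h and 12 h libraries against 74.9 to 122.9 CPM in mural 0 h and 1.82 to 94.4 CPM in cumulus libraries. Endothelial markers summed to 8.30 to 14.5 CPM in cumulus libraries at 0 h, 22.4 to 40.1 CPM at 4 h and 163 to 200.03 CPM at 12 h, and in mural libraries to 26.9 to 39.6, 53.0 to 62.9 and 127 to 157 CPM. Granulosa markers summed to 4612 to 6485 CPM at 0 h against 1700.3 to 2112 CPM at 12 h in cumulus libraries, and to 10426 to 12909 CPM against 1746 to 2369 CPM in mural libraries. Both sums moved with time beside the mitochondrial levels, and their part in the results was not tested. In bulk libraries fewer cells of a type and less RNA per cell cannot be told apart, and each level is relative to the rest of the library's RNA.

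Per length, the complex IV mRNAs and mt-Atp6 led and the rRNAs came last. mt-Co1, the catalytic core of cytochrome c oxidase, averaged 10306 CPM per kb over the 18 libraries. It was followed by mt-Atp6, the proton channel of the ATP synthase (8545 CPM per kb), mt-Co2, which takes electrons from cytochrome c (8007 CPM per kb), and mt-Co3, the third core subunit (6581 CPM per kb). The first 3 steps of this order held in 18 of 18 libraries each. mt-Cytb, the only mitochondrial subunit of complex III, averaged 5090 CPM per kb and mt-Nd1 of complex I 4453 CPM per kb, and mt-Cytb was above mt-Nd1 in 16 of 18 libraries. The other complex I mRNAs spread from mt-Nd4 at 3418 CPM per kb to mt-Nd3 at 1198 CPM per kb. Neighbours were not always in the same order: mt-Nd2 was above mt-Atp8 in 12 libraries, and mt-Nd5 above mt-Nd6 in 13. mt-Rnr2, the large ribosomal RNA, averaged 279 CPM per kb and mt-Rnr1, the small one, 231 CPM per kb, with mt-Rnr2 higher in 13 of 18 libraries. Since the libraries were enriched for poly(A) RNA, these rRNA values are levels in that fraction and not of the whole RNA.

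**Figure D1:**
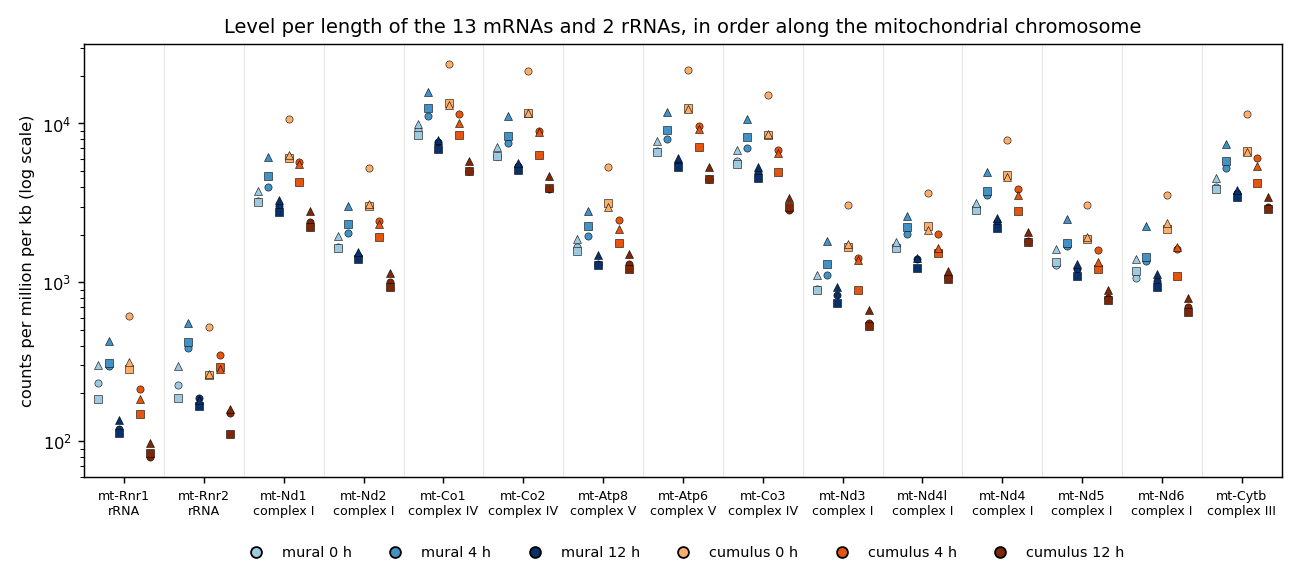
CPM per kb (log axis) of the 13 mRNAs and 2 rRNAs in each of 18 libraries, in gene order along the chromosome; colours give the group and circles, squares and triangles replicates 1, 2 and 3. The rRNAs lie lowest, mt-Co1, mt-Atp6 and mt-Co2 highest, and cumulus 0 h replicate 1 is the top point of every gene except mt-Rnr2.

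In cumulus cells the mitochondrial mRNAs fell at both steps after hCG. The 13 mRNAs together made 128378, 73429 and 73124 CPM in replicates 1, 2 and 3 at 0 h, 61410, 44819 and 56601 CPM at 4 h and 27503, 27234 and 32100 CPM at 12 h. The 3 times did not overlap, and the first library at 0 h lay well above the other two. From 0 to 12 h, 22 of 28 tested members were called and each was lower: the 13 mRNAs, both rRNAs and 7 tRNAs. Over all 19941 genes, 32.9% were called lower in that comparison and 31.2% higher. The median log2 change of the 13 mRNAs was -1.66, with a range of -1.91 to -1.28, where that of all genes was -0.09.

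mt-Co1 was listed at 36735, 20794 and 20263 CPM at 0 h, 17702, 12977 and 15628 CPM at 4 h and 7774, 7781 and 9003 CPM at 12 h. Its level fell 3.17-fold by 12 h (log2 -1.66 ± 0.22 SE, edgeR adjusted p = 2.75e-06), and every 12 h library lay under every 0 h and 4 h library. mt-Nd6, the complex I subunit encoded on the other strand, went from 1852, 1130 and 1218 CPM to 365, 337 and 416 CPM, the largest fall among the 13 mRNAs in that comparison (log2 -1.91 ± 0.22, edgeR adjusted p = 7.49e-07). mt-Nd4l, a small complex I subunit, had the smallest: it went from 1089, 673 and 636 CPM to 320, 312 and 352 CPM (log2 -1.28 ± 0.17, edgeR adjusted p = 3.92e-06). mt-Cytb went from 13136, 7671 and 7549 CPM to 3406, 3316 and 3937 CPM, again with no overlap (log2 -1.41 ± 0.20, edgeR adjusted p = 1.02e-05). The remaining complex I mRNAs changed by -1.89 (mt-Nd2), -1.88 (mt-Nd3), -1.64 (mt-Nd1), -1.60 (mt-Nd4) and -1.49 (mt-Nd5) on the log2 scale. Of the other complex IV mRNAs mt-Co2 changed by -1.84 and mt-Co3 by -1.80, and of complex V mt-Atp6 by -1.70 and mt-Atp8 by -1.51. Without both libraries that stood apart, 21 members were lower and the mRNA median was -1.33. The oocyte marker sum was also lower at 12 h (6.31 to 13.9 CPM) than at 0 h (519 to 2601 CPM). With it as a covariate the 13 mRNAs were called lower, with a median of -2.09. Since the sums at 0 h and 12 h did not overlap, that fit cannot separate oocyte RNA from time. The part of oocyte RNA in this fall was not tested.

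The fall had begun by 4 h. From 0 to 4 h, 20 of 28 tested members were called lower, against 22.8% of all genes called lower and 25.0% higher, and the mRNA changes ran from -0.90 (mt-Co2) to -0.57 (mt-Nd1). The median over the mRNAs was -0.77 and over all genes 0.13. mt-Nd2 of complex I was listed at 5457, 3146 and 3243 CPM at 0 h and 2542, 2011 and 2412 CPM at 4 h (log2 -0.77 ± 0.19, edgeR adjusted p = 0.00307). Its lowest 0 h library was above its highest 4 h library. limma voom called 8 members lower at this step, 7 of them mRNAs, and a fit of only the compared groups 6. This step leaned on cumulus 0 h replicate 1: without it 13 members were lower and the mRNA median was -0.46, and without both libraries that stood apart 14 members were lower and the median was -0.49. From 4 to 12 h, 19 of 28 were called lower, against 31.3% of all genes called lower and 29.2% higher, with an mRNA median of -0.92 and a range of -1.13 (mt-Nd2) to -0.64 (mt-Nd4l). Without both libraries 18 were lower and the mRNA median was -0.87. Oocyte marker RNA moved with this step, since its sum was 1533 CPM or more in each 4 h library and 13.9 CPM or less in each 12 h library. With that sum as a covariate 2 members were lower, the mRNA median was -1.42, and the part of oocyte RNA in the result was not tested.

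In mural cells the mitochondrial mRNAs were lower at 12 h than at 4 h, and 4 of the 13 were called higher at 4 h than at 0 h. Their sum was 45022, 43604 and 50915 CPM at 0 h, 55265, 61855 and 80595 CPM at 4 h and 38758, 35760 and 41084 CPM at 12 h. The 3 times did not overlap, and mural 4 h replicate 3 was the highest mural library. From 0 to 4 h, 5 of 28 tested members were called higher: mt-Rnr2, mt-Cytb, mt-Nd1, mt-Nd2 and mt-Nd5. Over all genes 22.8% were called higher and 22.3% lower in this comparison, so the share of members called higher was under that of all genes. The 13 mRNAs changed by 0.42 (mt-Nd4l) to 0.58 (mt-Cytb) on the log2 scale with a median of 0.48, where the median of all genes was -0.06. mt-Cytb was listed at 4556, 4418 and 5175 CPM at 0 h and 6002, 6614 and 8538 CPM at 4 h, without overlap (log2 0.58 ± 0.20, edgeR adjusted p = 0.0255). These calls depended on single libraries: without mural 4 h replicate 3 there were 0 (mRNA median 0.23), without mural 0 h replicate 1 or replicate 2 there was 1, and without mural 4 h replicate 2 there were 3. Without both cumulus libraries that stood apart, which enter through the shared estimate of spread, 15 members were called higher. At an unadjusted p under 0.05 the 13 mRNAs were higher, and by DESeq2 13 and by limma voom 12 of them were called.

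In mural cells between 4 and 12 h, 18 of 28 tested members were called lower, the 13 mRNAs, both rRNAs and 3 tRNAs, against 16.1% of all genes called lower and 18.3% higher. The mRNA changes were close to each other, from -0.82 (mt-Co3) to -0.70 (mt-Nd1), with a median of -0.76 against 0.01 over all genes. mt-Co3 was listed at 5511, 6476 and 8391 CPM at 4 h and 3804, 3543 and 4195 CPM at 12 h (log2 -0.82 ± 0.21, edgeR adjusted p = 0.00555). Its groups did not overlap. Without mural 4 h replicate 3, 6 members were called lower, 3 of them mRNAs, and the mRNA median was -0.56. Between 0 and 12 h the mural mRNAs were not called. Their changes ran from -0.34 to -0.17 with a median of -0.29, where the median of all genes was -0.05, and edgeR found 0 of 13 lower also at an unadjusted p under 0.05, DESeq2 0 and limma voom 2 after adjustment. Without both cumulus libraries that stood apart, 3 of the 13 were called lower. Scaling to library totals gave 10 members lower, and so did a fit of only the compared groups. In the fit of all libraries the member called was mt-Rnr1, lower, against 19.0% of all genes called lower and 21.6% higher.

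**Figure D2:**
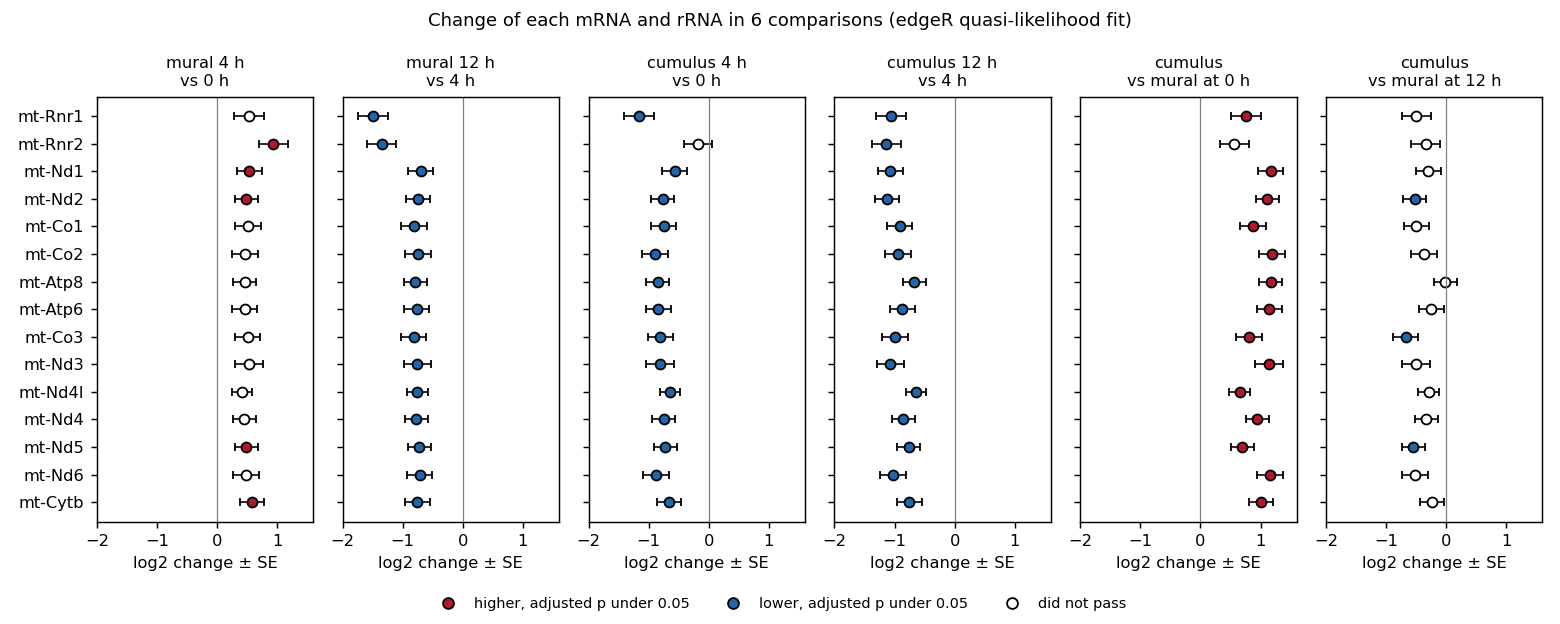
Log2 change with its standard error of each mRNA and rRNA (rows, in gene order) in 6 comparisons (panels), with red points called higher, blue points lower and white points not called. The points fall left of 0 in both cumulus steps and in the mural step from 4 to 12 h, and right of 0 in the mural step from 0 to 4 h and between cell types at 0 h.

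Before hCG the mitochondrial mRNAs were higher in cumulus cells. At 0 h, 18 of 28 tested members were called higher in cumulus than in mural cells, the 13 mRNAs, mt-Rnr1 and 4 tRNAs, where 21.5% of all genes were called higher and 25.3% lower. The mRNA changes ran from 0.65 (mt-Nd4l) to 1.19 (mt-Co2) with a median of 1.11, against -0.03 over all genes. mt-Co2 was listed at 14664, 7964 and 7988 CPM in cumulus and 4295, 4255 and 4897 CPM in mural cells (log2 1.19 ± 0.22, edgeR adjusted p = 0.00029). mt-Nd1, which sits in the membrane arm of complex I near the quinone site, was listed at 10229, 5783 and 6031 CPM against 3095, 3072 and 3611 CPM (log2 1.17 ± 0.21, edgeR adjusted p = 0.000199). For both genes every cumulus library was above every mural library. Without both libraries that stood apart 17 members were higher, the mRNA median was 0.81, and neither rRNA was called. Theca markers (Cyp17a1, Insl3 and Lhcgr, the last also on the mural list) summed to 706 to 837 CPM in these mural libraries and 2.71 to 14.3 CPM in the cumulus ones, and their part in the difference was not tested.

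At the later times the share of members called lower in cumulus cells was under that of all genes. At 4 h, 5 of 28 tested members were called, each lower in cumulus cells: mt-Nd5, mt-Rnr1, mt-Tc, mt-Th and mt-Tp, against 27.0% of all genes called lower and 27.6% higher. mt-Nd5, the end piece of the membrane arm of complex I, was listed at 2932, 2227 and 2450 CPM in cumulus and 3096, 3210 and 4569 CPM in mural cells (log2 -0.52 ± 0.19, edgeR adjusted p = 0.0305). Its groups did not overlap, while for mt-Nd1 (5455, 4115 and 5328 against 3807, 4493 and 5894 CPM) they did, and its change was 0.07 ± 0.21. The call rests on single libraries, since without mural 4 h replicate 3 or without cumulus 4 h replicate 2 it was made for 1 member, without cumulus 4 h replicate 3 for 2, and without both libraries that stood apart for 7. With the oocyte marker sum as a covariate there were 0 calls at 4 h and 0 at 12 h, while limma voom called 0 members lower at 4 h and 11 at 12 h, and a fit of only the compared groups 1 and 15. At 12 h, 4 of 28 were called lower in cumulus cells, mt-Co3, mt-Nd2, mt-Nd5 and mt-Tp, against 20.5% of all genes called lower and 18% higher. mt-Co3 was listed at 2227, 2336 and 2658 CPM in cumulus and 3804, 3543 and 4195 CPM in mural cells, without overlap (log2 -0.68 ± 0.21, edgeR adjusted p = 0.0174). Leaving out 1 library at a time gave 0 to 3 calls, 0 of them without mural 12 h replicate 3, cumulus 12 h replicate 1 or cumulus 12 h replicate 2, 1 without mural 12 h replicate 1 and 2 without mural 12 h replicate 2. Without both libraries that stood apart there were 10.

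The time courses of the cell types differed by the interaction term of the same fit. The change from 0 to 4 h was lower in cumulus than in mural cells for 18 of 28 tested members, against 7.26% of all genes called lower and 6.78% higher in that term. For the 13 mRNAs the difference of the log2 changes ran from -1.36 to -1.06 with a median of -1.26, against 0.07 over all genes. The change from 0 to 12 h was likewise lower in cumulus cells for 18 of 28, against 20% of all genes called lower and 20.1% higher, with mRNA differences of -1.67 (mt-Nd6) to -0.95 (mt-Nd4l) and a median of -1.40. Without both libraries that stood apart, 15 and 17 members were lower and the mRNA medians were -0.98 and -1.08. Both terms share the 0 h libraries of each cell type with the comparisons above.

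Within the mitochondrial counts, the mix of transcripts was similar in all libraries. mRNAs held 98.4 to 99.0% of the counts of the 37 genes in every library, rRNAs 0.922 to 1.6% and tRNAs 0.0272 to 0.0411%. Complex IV took 45.4 to 50.3%, complex I 27.4 to 29.9%, complex V 10.4 to 12.3% and complex III 9.99 to 12.2%. To compare shares, the fit was repeated with each library scaled to its mitochondrial total, a choice made after the data were seen. In that fit, edgeR called 0 of 13 mRNAs in any of the 11 comparisons, also at an unadjusted p under 0.05, with standard errors of 0.205 or more on the log2 scale, so smaller changes of share were not detectable there.

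Some shares differed between groups by more than their replicates did, without passing that test. mt-Cytb held 10.1, 10.3 and 10.2% of the mitochondrial counts in 0 h cumulus libraries, 11.1, 10.7 and 10.8% in those of 4 h, and 12.2, 12.1 and 12.1% at 12 h, and the times did not overlap. In mural cells its share was 9.99, 10.02 and 10.01% at 0 h and 10.6 to 10.9% at 12 h. mt-Co3 held 9.71 to 10.3% in mural libraries and 8.0 to 9.06% in cumulus libraries, with every cumulus library under every mural library. mt-Nd1 lay the other way, at 6.78 to 7.57% in mural and 7.75 to 9.31% in cumulus libraries. mt-Nd4l held 0.839, 0.908 and 0.861% in 0 h cumulus libraries and 1.15, 1.14 and 1.08% at 12 h, without overlap. In the fit scaled to the mitochondrial total mt-Cytb changed by 0.25 ± 0.22 and mt-Nd4l by 0.37 ± 0.21 from 0 to 12 h in cumulus cells, with edgeR adjusted p of 0.31 and 0.107. The errors there were alike for the 13 mRNAs, at 0.206 to 0.228, and do not measure the spread of each share between replicates. The mt-Cytb share had a mean of 10.23% (SD 0.12) at 0 h and 12.14% (SD 0.09) at 12 h. Shares not called in that fit are therefore not shown to be equal.

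**Figure D3:**
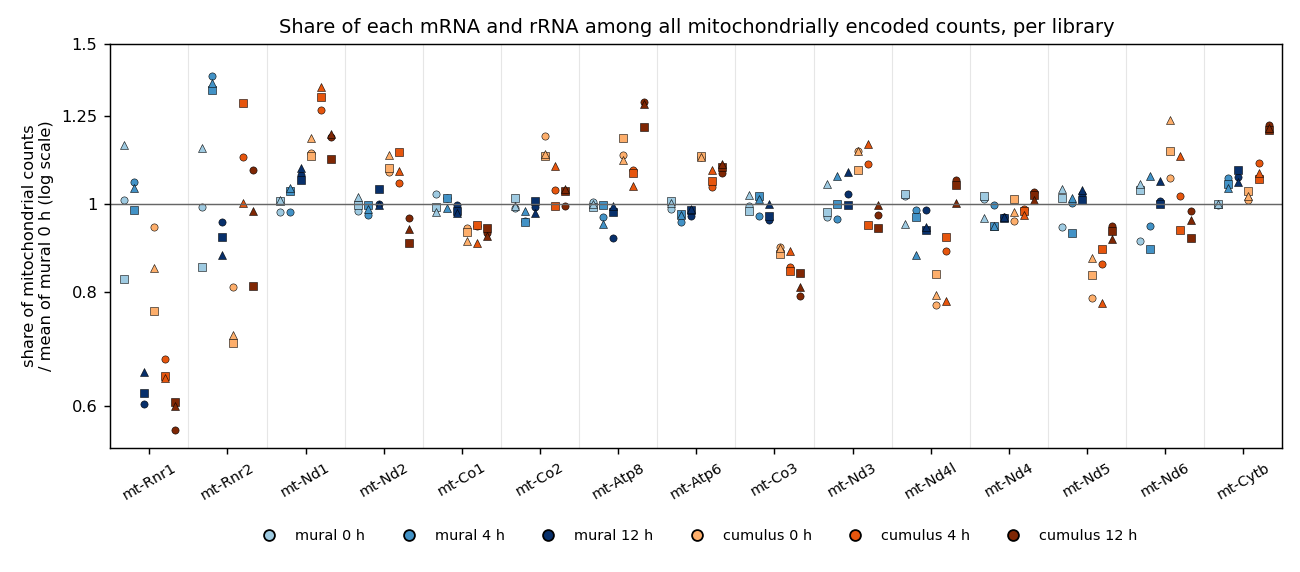
Share of each mRNA and rRNA among the counts of the 37 mitochondrial genes, divided by its mean in mural 0 h libraries (log axis), 1 point per library with colours for the 6 groups. mt-Cytb is highest in the 3 cumulus 12 h libraries, mt-Co3 is under 1 in each cumulus library, and the rRNAs spread most.

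Both rRNAs and the tRNAs mt-Tp and mt-Th were the members whose share was called in at least 1 comparison. mt-Rnr1, the rRNA of the small mitoribosomal subunit (MT:70-1024), was listed at 222, 175 and 289 CPM in mural 0 h, 286, 298 and 411 CPM in mural 4 h and 114, 108 and 131 CPM in mural 12 h libraries. It fell from 4 to 12 h (log2 -1.50 ± 0.25, edgeR adjusted p = 0.000144), and was also lower at 12 h than at 0 h (log2 -0.96 ± 0.25, edgeR adjusted p = 0.00444). In cumulus cells it was listed at 589, 272 and 302 CPM at 0 h, 202, 142 and 177 CPM at 4 h and 75.6, 80.2 and 93.7 CPM at 12 h, a 4.66-fold fall over the 12 h (log2 -2.22 ± 0.26, edgeR adjusted p = 7.96e-07). mt-Rnr2, the rRNA of the large subunit (MT:1094-2675), followed another course. In cumulus cells it was listed at 833, 412 and 420 CPM at 0 h and 554, 464 and 453 CPM at 4 h, an overlapping range (log2 -0.18 ± 0.24, edgeR adjusted p = 0.55), and at 240, 177 and 252 CPM at 12 h. Its mural values were 358, 298 and 471 CPM at 0 h and 614, 663 and 881 CPM at 4 h, the largest rise among the members called at that step (log2 0.94 ± 0.24, edgeR adjusted p = 0.00375).

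Scaled to the mitochondrial total, mt-Rnr1 fell in share from 0 to 12 h in mural cells (log2 -0.68 ± 0.21, edgeR adjusted p = 0.0129), where 7.39% of all genes were called lower on that scale, and it was the only member called. Between 4 and 12 h in mural cells both rRNAs fell in share, mt-Rnr1 by 0.72 and mt-Rnr2 by 0.57 on the log2 scale, with 3.42% of all genes called lower. From 0 to 4 h in cumulus cells mt-Rnr2 rose in share (log2 0.62 ± 0.22, edgeR adjusted p = 0.0185), where 45.2% of all genes were called higher on a scale that divides by a falling total. From 0 to 12 h in cumulus cells mt-Rnr1 (log2 -0.53) and the tRNA mt-Tp (log2 -0.71) fell in share, with 10.1% of all genes called lower. At 4 h mt-Rnr1 and mt-Th held a lower share in cumulus than in mural cells (log2 -0.65 and -2.87), with 13% of all genes called lower. The count of mt-Rnr2 per count of mt-Rnr1 was 1.61, 1.70 and 1.63 in 0 h mural libraries, 2.14, 2.23 and 2.14 in those of 4 h, and 2.61, 2.44 and 2.21 at 12 h, though neither rRNA was called in share from 0 to 4 h there. In cumulus cells it was 1.41, 1.51 and 1.39 at 0 h against 2.74, 3.28 and 2.56 at 4 h, then 3.17, 2.20 and 2.69 at 12 h, so every 4 h and 12 h library was above every 0 h library of its cell type.

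The tRNAs, of 59 to 75 bases, were rare in these libraries, with 259 to 1869 counts per library in all. mt-Tv had no count in any library. For counting error only, this allows at most 0.0626 to 0.0931 counts per 1000000 counts of the library before TMM scaling, depending on the library. The 5 tRNAs with the highest mean count were mt-Tp, mt-Ts1, mt-Te, mt-Tc and mt-Ta, and these 5 are encoded on the minus strand. The 8 minus-strand tRNA genes held 84.7 to 94.1% of tRNA counts, and the 14 plus-strand genes 25 to 146 counts per library. mt-Tp, printed above, had 318, 321 and 363 counts in mural 0 h libraries, while its plus-strand neighbour mt-Tt had 4, 2 and 2. Over the 18 libraries mt-Tp ranged from 99 to 808 counts and mt-Tt from 0 to 13. The kit was stranded per the labels, and whether the counting used strand is not given in the sources used here, so counts of RNA from the opposite strand cannot be told apart from those of the tRNA.

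mt-Tp had 808, 627 and 514 counts in 0 h cumulus libraries, 322, 160 and 239 at 4 h and 101, 99 and 114 at 12 h. Its level fell in cumulus cells from 0 to 12 h (log2 -2.38 ± 0.28, edgeR adjusted p = 8.97e-07) and in mural cells from 4 to 12 h (log2 -1.08 ± 0.27, edgeR adjusted p = 0.0044). The serine tRNA mt-Ts1, which lies against the end of mt-Co1, had 302, 184 and 204 counts in 0 h cumulus libraries, falling to 31, 46 and 37 at 12 h (log2 -2.35 ± 0.37, edgeR adjusted p = 2.7e-05). mt-Te, for glutamate, lies next to the start of mt-Nd6 and was higher in cumulus than in mural cells at 0 h, with 246, 140 and 183 against 36, 52 and 69 counts (log2 1.96 ± 0.45, edgeR adjusted p = 0.00169). mt-Th, for histidine, had 28, 30 and 12 counts in 0 h cumulus libraries, 4, 0 and 0 in those of 4 h, and 2, 0 and 15 in those of 12 h. It was called in 3 of the tests of share besides the one between cell types at 4 h: lower from 0 to 4 h in cumulus cells (6.73% of all genes called lower), higher from 4 to 12 h (51.3% of all genes called higher), and in the interaction term from 0 to 4 h (1.03% called lower). Fitted changes of genes with so few counts depend on the prior count.

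The minus strand also carries mt-Nd6, whose gene (MT:13552-14070) overlaps the end of mt-Nd5 on the plus strand (MT:11742-13565). mt-Nd6 counts were 22.9 to 25.7% of mt-Nd5 counts in the 9 mural libraries. In cumulus cells they were 33.0, 33.2 and 34.4% at 0 h, 28.9, 25.5 and 35.2% at 4 h, then 25.2, 23.9 and 25.5% at 12 h. The 0 h cumulus libraries thus stood above the mural ones, and the 12 h libraries overlapped them. At 4 h the highest value was that of replicate 3, the library with the highest oocyte sum.

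The nuclear genes for the same 4 complexes had smaller median changes through time. The 72 nuclear subunit genes summed to 8364 to 10504 CPM in cumulus 0 h, 6608 to 8817 CPM in cumulus 4 h and 7526 to 8223 CPM in cumulus 12 h libraries, and 4 h and 12 h overlapped. In mural cells their sums were 5693 to 6405, 5649 to 6333 and 5767 to 6070 CPM at 0, 4 and 12 h, which overlap. In cumulus cells 44 of the 72 were called lower and 1 higher from 0 to 4 h (median -0.36), against 22.8% of all genes lower and 25.0% higher. Over the whole 12 h 41 were lower and 6 higher, against 32.9% and 31.2% of all genes, with a median of -0.33 beside -1.66 for the mitochondrial mRNAs. From 4 to 12 h in cumulus cells 12 were lower and 15 higher (median 0.02), against 31.3% and 29.2% of all genes. In mural cells over the same hours 3 were lower and 14 higher (median 0.12), against 16.1% and 18.3%. Mitochondrial mRNA per nuclear subunit RNA was 12.2, 8.50 and 8.74 in 0 h cumulus libraries, 7.70, 5.08 and 8.57 in those of 4 h, and 3.44, 3.62 and 3.90 in those of 12 h, so 0 and 4 h overlapped and 12 h lay under both. In mural cells it was 7.03, 7.40 and 8.94 at 0 h, 9.78, 9.77 and 14.1 at 4 h, above that range, and 6.55, 5.89 and 7.12 at 12 h, which overlaps 0 h. Between cell types at 0 h both sets lay the same way. Of the 72 nuclear genes 64 were higher in cumulus cells and 0 lower (edgeR, median 0.79), against 21.5% and 25.3% of all genes. At 12 h 52 of the 72 were called higher and 1 lower (median 0.44), against 18% and 20.5% of all genes. At that time 3 mitochondrial mRNAs were called lower.

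**Figure D4:**
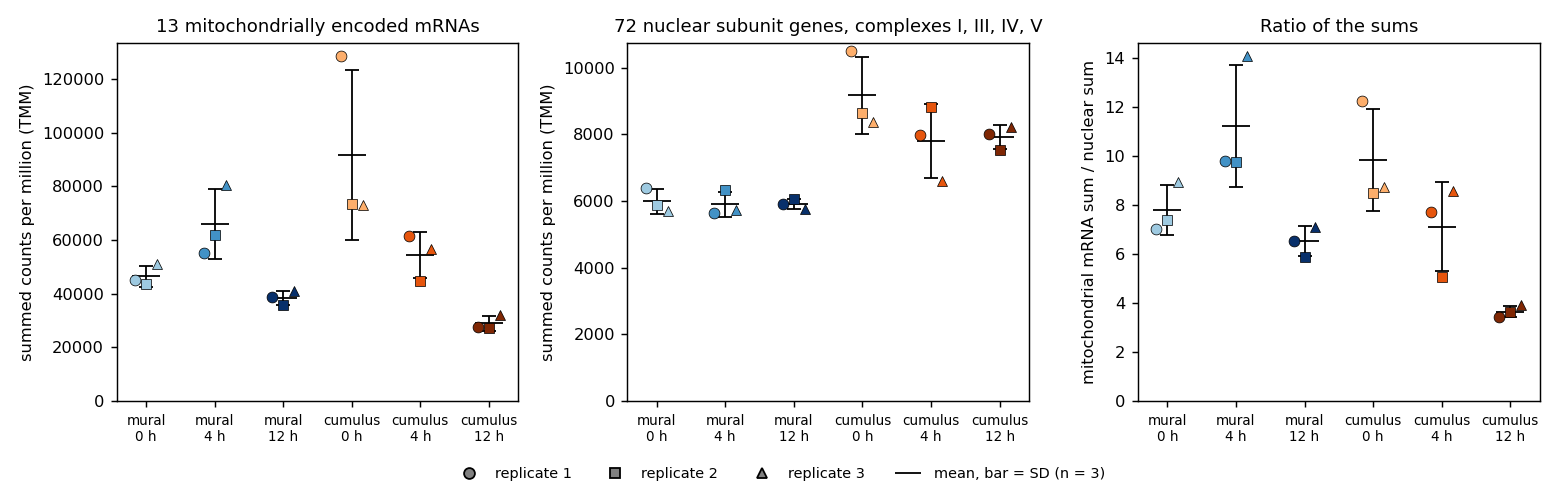
Summed CPM of the 13 mitochondrial mRNAs (left), of 72 nuclear subunit genes of complexes I, III, IV and V (middle) and their ratio (right), with 1 point per library and the mean and SD of 3 libraries per group. The mitochondrial sum is lowest at 12 h in both cell types, while the nuclear sums of the 3 mural groups overlap.

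By complex, the 37 nuclear genes set under complex I were taken by name alone (Ndufa, Ndufb, Ndufc, Ndufs or Ndufv), Ndufa4 and Ndufa4l2 included. In cumulus cells 31 of them were lower from 0 to 4 h (median -0.52). From 0 to 12 h 24 were lower and 4 higher (median -0.40), beside the shares of all genes given above for these comparisons. Among the called genes of largest change from 0 to 12 h were Ndufs4 (log2 -1.31 ± 0.14), a subunit of the matrix arm, and Ndufa5 (log2 -1.20 ± 0.13). Of 8 complex III genes 3 were lower and 1 higher over the same 12 h, with Uqcrq at -0.89 ± 0.13 and Uqcrb, which binds near cytochrome b, at 0.53 ± 0.13. Of 10 complex IV genes 4 were lower, led by Cox7a2 at -0.62 ± 0.12. Of 17 complex V genes 10 were lower and 1 higher, with Atp5e at -0.93 ± 0.10. The row Atp5o_1 had the largest change of that set, -2.89 ± 0.23, and its name shows that the table holds more than 1 row for this gene. The row Atp5o_2 is counted separately among the 17, and its change is not given here. In the mural comparison from 0 to 4 h, 19 of the 37 genes set under complex I were lower and 3 higher (median -0.30), while mt-Nd1, mt-Nd2 and mt-Nd5 were called higher. Over all genes 22.3% were called lower and 22.8% higher in that comparison.

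For genes that make mitochondrial RNA, the shares called in cumulus cells over the 12 h were under those of all genes, 31.2% higher and 32.9% lower. Of 17 genes that transcribe or copy mitochondrial DNA, 4 were higher and 3 lower from 0 to 12 h in cumulus cells, with a median of 0.00. Tfam, which packages mitochondrial DNA and starts its transcription, changed by -0.04 ± 0.11 (edgeR adjusted p = 0.754) over those 12 h, when mt-Co1 fell 3.17-fold. Polrmt, the mitochondrial RNA polymerase, rose in cumulus cells (log2 0.41 ± 0.10, edgeR adjusted p = 0.00158) and fell in mural cells (log2 -0.34 ± 0.10, edgeR adjusted p = 0.00962) from 0 to 12 h, and the interaction term was 0.76 ± 0.14. Mterf2, of the family of mitochondrial termination factors, rose in cumulus cells from 3.47, 3.68 and 3.70 CPM at 0 h to 9.31, 9.06 and 9.48 CPM at 12 h. Tfb2m, which opens the promoter with Polrmt, rose from 0 to 12 h in both cell types (log2 0.74 ± 0.09 in cumulus and 0.69 ± 0.09 in mural cells). In mural cells from 0 to 4 h, 4 of the 17 were higher, led by the DNA polymerase Polg (log2 0.70 ± 0.11), and 6 lower. Over all genes 22.8% were called higher and 22.3% lower there, so the share called higher was near that of all genes.

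Most genes for processing and decay of mitochondrial RNA were lower in cumulus cells at 12 h. Of 18 tested, 12 were lower and 1 higher from 0 to 12 h, with a median of -0.50, against the same 32.9% and 31.2% of all genes. Hsd17b10, a part of the enzyme that cuts the 5′ ends of tRNAs, went from 205, 157 and 162 CPM at 0 h to 66.2, 67.2 and 67.5 CPM at 12 h (log2 -1.38 ± 0.15, edgeR adjusted p = 2.58e-07). Elac2, which cuts the 3′ ends of tRNAs, fell by 1.12 ± 0.13 on the log2 scale. Slirp, which with Lrpprc keeps mitochondrial mRNAs stable, was listed at 36.0, 29.7 and 28.4 CPM in 0 h cumulus libraries, against 22.7, 17.7 and 19.7 CPM at 12 h (log2 -0.65 ± 0.12, edgeR adjusted p = 0.000143). Slirp was higher in cumulus than in mural cells at 0 h (log2 1.26 ± 0.12), as the mitochondrial mRNAs were, and its change from 0 to 12 h was lower in cumulus cells by the interaction term (-0.72 ± 0.17, edgeR adjusted p = 0.00259). Lrpprc fell in both cell types, by 0.48 ± 0.10 in cumulus and 0.53 ± 0.10 in mural cells. In mural cells from 4 to 12 h, when the 13 mRNAs were called lower, 1 gene of the 18 was called higher (Elac2, log2 0.59 ± 0.13) and 1 lower (Tbrg4, log2 -0.59 ± 0.12). Over all genes 18.3% were called higher and 16.1% lower. The part of these genes, and of those that make mitochondrial RNA, in the mitochondrial levels was not tested.

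Of 8 regulators of mitochondrial biogenesis, 3 were higher and 4 lower in cumulus cells from 0 to 12 h, beside 31.2% and 32.9% of all genes. Esrrg, a nuclear receptor that drives respiratory genes, was listed at 12.0, 16.9 and 17.0 CPM at 0 h, 5.12, 3.64 and 18.2 CPM at 4 h and 0.473, 0.44 and 0.264 CPM at 12 h (log2 -5.29 ± 0.53 from 0 to 12 h, edgeR adjusted p = 1.25e-07). Its high library at 4 h was replicate 3, the one with the most oocyte marker RNA. The coactivator Ppargc1b went from 4.996, 6.12 and 4.596 CPM at 0 h to 0.502, 0.264 and 0.502 CPM at 12 h (log2 -3.62 ± 0.45, edgeR adjusted p = 1.46e-06), and at 4 h was highest in that same replicate, at 8.87 CPM. The related receptor Esrra rose (log2 1.53 ± 0.12). Ppargc1a, the best known coactivator of this family, was low throughout, with group means of 0.229 to 1.20 CPM, and its cumulus change of -0.71 ± 0.49 was not called. In mural cells Esrrg fell from 0 to 12 h (log2 -1.92 ± 0.44) and Esrra rose (log2 0.95 ± 0.12).

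Of the mitophagy genes, which mark mitochondria for removal, 9 of 10 were tested. From 4 to 12 h 7 were higher and 2 lower in cumulus cells (median 0.75), against 29.2% of all genes higher and 31.3% lower. In mural cells 5 were higher and 3 lower (median 0.37), against 18.3% and 16.1%. Bnip3, a receptor on the outer membrane, fell from 0 to 4 h in both cell types (log2 -2.98 ± 0.17 in cumulus and -2.93 ± 0.17 in mural cells). It then rose from 4 to 12 h by 3.54 ± 0.17 in cumulus and 4.20 ± 0.18 in mural cells. Pink1, a kinase that marks damaged mitochondria, fell and rose likewise in cumulus cells (log2 -1.59 ± 0.14, then 1.98 ± 0.14). The sum of Malat1 and Neat1, RNAs kept in the nucleus, was 326 to 470 CPM in cumulus libraries at 0 h, 485 to 680 CPM at 4 h and 872 to 1036 CPM at 12 h. That is the reverse of the order of the mitochondrial mRNAs. In mural cells it was 500.0 to 585 CPM at 0 h, 1480 to 1595 CPM at 4 h and 1008 to 1192 CPM at 12 h. There both sums were highest at 4 h, while 12 h lay above 0 h for Malat1 and Neat1 and under it for the mitochondrial mRNAs. The part of RNA quality or of leakage from nuclei in the results was not tested.

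Copies of mitochondrial genes in the nuclear genome could take reads away from the members, since the deposited values are unique reads per gene. Alignment of the annotated transcripts found 11 nuclear copies of 100 bases or more at 95% identity or more, and 0 of them have a row in the table. 7 of them lie side by side on chromosome 1 between 24611535 and 24616197 (GRCm38, minus strand), are annotated as unprocessed pseudogenes and match mt-Nd4l, mt-Nd3, mt-Co3, mt-Atp6, mt-Co2 and parts of mt-Nd4 (876 of 1378 bases) and mt-Co1 (483 of 1545 bases) at 99.7 to 100% identity. 5 of these 7 have no difference over the aligned bases. For mt-Co1 and its copy Gm29216 there was 1, A1066T, and for mt-Nd3 and its copy Gm28438 also 1, T3C, with positions counted from 1 at the 5′ end of the mitochondrial gene, that gene's base first. Both sites are shown with that base in capitals.
mt-Co1: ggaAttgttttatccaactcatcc
Gm29216: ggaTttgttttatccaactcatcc
mt-Nd3: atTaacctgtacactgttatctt
Gm28438: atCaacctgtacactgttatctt
Despite these copies, mt-Co2, matched over 681 bases without a difference, had 89184 to 537135 unique counts per library. How the reads of both sites were assigned is not given in the sources used here, so levels of these 7 members relative to the other members are uncertain, while each was counted in the same way in all libraries.

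1 copy, Gm4076, lies on chromosome 13 and matches 954 bases of mt-Nd5 at 95.2% identity. 3 further copies, of mt-Co2, mt-Co1 and mt-Nd2 at 95.9 to 97.6% identity, lie within Myo3a on chromosome 2 (22227503 to 22618252, plus strand). Myo3a encodes a myosin known from hair cells of the inner ear, and it was the nuclear gene whose level followed the mitochondrial sum most closely, with Pearson r of 0.99 between log2 CPM over 18 libraries. It had 33.8 to 45.8 counts per 10000 mitochondrial counts, a narrow range over libraries whose mitochondrial counts ran from 938105 to 4756287. The next genes by this measure were Atp1b1 (r of 0.92), Gtf3c2 (0.92), Mcm7 (0.89) and Crnde (0.89). These correlations describe libraries that share the group structure and scaling, and genes were ranked by them, so no p is given. Where in Myo3a its reads lie was not tested, since the table gives 1 count per gene.

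**Figure D5:**
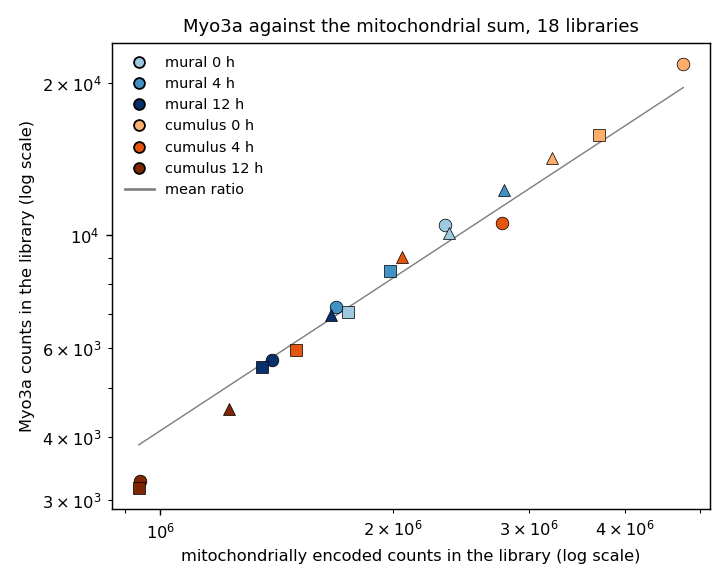
Counts of Myo3a against the summed counts of the 37 mitochondrial genes in each of 18 libraries (both axes log), with colours for the 6 groups, shapes for the replicates and a grey line at the mean ratio. The points follow the line over the whole range, and the cumulus 12 h libraries lie under it.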

How the data were processed

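Counts were deposited by the authors as whole numbers of unique reads per gene, in 1 table of 41325 rows. Reads were aligned and counted with CLC Genomics Workbench at default parameters, per the labels, on GRCm38, per the submitters' processing notes. Libraries were enriched for poly(A) RNA with a stranded kit, per the labels. For annotation and strand, settings were not given in the sources used here. Totals were 32211630 to 47919446 counts per library.

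Genes passing edgeR's filter (minimum count 10) were fitted by quasi-likelihood over 6 group means with TMM scaling (edgeR 4.0.16, R 4.3.3), adjusted over 19941 genes, with a threshold of 0.05, and the script was tested on simulated data. limma 3.58.1, DESeq2 1.42.0, other scalings, filters, a replicate block and single libraries left out were alternatives. Shares were fitted after scaling to the mitochondrial total, and nuclear copies came from GENCODE release 21 transcripts (100 bases, 95% identity). The members and lists were chosen with earlier results of these data known. The nuclear genes named with values were fixed regulators and, per list, those of largest change among the called.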

Additional observations from a re-analysis of the deposited data

Results flagged for a closer look

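The change after hCG differed between cumulus and mural cells, by the interaction term of edgeR's quasi-likelihood fit, for the 13 mRNAs and both rRNAs at both later times. Values are the log2 change in cumulus cells minus that in mural cells, so a negative value means a lower change in cumulus cells.

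From 0 to 4 h, when the mural changes lay above 0 and the cumulus changes under 0, the differences were mt-Rnr1 -1.69, mt-Rnr2 -1.12, mt-Nd1 -1.10, mt-Nd2 -1.25, mt-Co1 -1.26, mt-Co2 -1.36, mt-Atp8 -1.31, mt-Atp6 -1.30, mt-Co3 -1.31, mt-Nd3 -1.35, mt-Nd4l -1.06, mt-Nd4 -1.20, mt-Nd5 -1.21, mt-Nd6 -1.36 and mt-Cytb -1.24.

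From 0 to 12 h the differences were mt-Rnr1 -1.26, mt-Rnr2 -0.91, mt-Nd1 -1.47, mt-Nd2 -1.63, mt-Co1 -1.37, mt-Co2 -1.56, mt-Atp8 -1.19, mt-Atp6 -1.40, mt-Co3 -1.49, mt-Nd3 -1.66, mt-Nd4l -0.95, mt-Nd4 -1.28, mt-Nd5 -1.24, mt-Nd6 -1.67 and mt-Cytb -1.24. The time points share the 0 h libraries, so both lists carry the same cumulus 0 h replicate 1, and without the libraries that stood apart the mRNA medians were -0.98 and -1.08.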

How the results depend on the processing

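Over 28 members, 10 settings and the fits without single libraries, 5229 values were recomputed: 4779 kept their side of the threshold and direction, 268 lost the call, 182 gained one and 0 reversed. Under these alternatives the counts of members called from 0 to 12 h in cumulus cells, between cell types at 0 h and in both interaction terms moved by at most 1.5 times. Those given next moved by more, and the cause was not tested.

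From 0 to 4 h in mural cells 5 members were higher, 10 with DESeq2 size factors, 1 with library totals, 13 with only the compared groups, 15 without the libraries that stood apart, 14 by limma voom and 14 by DESeq2, and 0 to 5 without single libraries. From 0 to 12 h in mural cells 1 was lower, 10 with library totals, 2 with the oocyte covariate, 10 with only the compared groups, 5 without the libraries that stood apart and 4 by limma voom. From 4 to 12 h in mural cells 18 were lower, and 6 to 18 without single libraries. From 0 to 4 h in cumulus cells 20 were lower, 6 with only the compared groups, 8 by limma voom and 13 to 20 without single libraries. From 4 to 12 h in cumulus cells 19 were lower, 2 with the oocyte covariate, and 0 to 1 were higher without single libraries (1 without cumulus 4 h replicate 1 or cumulus 12 h replicate 2).

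Between cell types at 4 h 5 members were lower in cumulus cells, 3 with library totals, 0 with the oocyte covariate, 1 with only the compared groups, 0 by limma voom, 8 by DESeq2 and 1 to 7 without single libraries. At 12 h 4 were lower, 9 with library totals, 0 with the oocyte covariate, 15 with only the compared groups, 10 without the libraries that stood apart, 11 by limma voom and 0 to 3 without single libraries.

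With the replicate number as a block, 12 members were higher from 0 to 4 h in mural cells and 8 lower in cumulus cells at 4 h, and the replicate block moved no other count by over 1.5 times. In the main fit the numbers were not taken to pair the libraries. Over 45 same-numbered pairs the correlation of deviations ran from -0.493 to 0.555, with 14 over 0.1. Pairing within 1 cell type was not tested separately. With few counts per library, 9 tRNAs were not tested. The edgeR fit of all groups, limma voom and the fit of only the compared groups estimate the spread differently.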
